A study of Mus musculus with 9 samples.

Results

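The tumour suppressor p53 (Trp53), its inhibitors Mdm2 and Mdm4, and 7 genes that p53 is known to switch on (Cdkn1a, Ccng1, Sesn1, Sesn2, Ei24, Zmat3 and Tigar) were read in RNA of mouse morulae. These 10 genes were taken by name from the 53819 rows of each count file, and all 10 were found and passed the filter on low counts, which 12488 genes passed. The embryos were C57BL/6J morulae made by in vitro fertilization, and the question was whether alcohol exposure of the sire ahead of mating changes their gene expression. There were 3 groups of 3 libraries, labelled Control, 6% EtOH and 10% EtOH after the treatment of the sire. The labels do not say how many embryos or sires stand behind a library, so the p-values rest only on how these libraries vary, and that variation may be technical. Because whole embryos were sequenced, fewer cells of a type and less RNA per cell cannot be told apart.

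p53 is a transcription factor that is made all the time and destroyed all the time. Mdm2 is the ubiquitin ligase that marks it for destruction, and Mdm4 is its relative that covers the activation domain of p53 and pairs with Mdm2. Because p53 switches on Mdm2, the pair forms a negative feedback loop, and mouse embryos without Mdm2 die around implantation unless p53 is missing too. When DNA damage or metabolic stress releases p53, it raises Cdkn1a to halt the cell cycle, the sestrins and Tigar to adjust metabolism, and genes such as Ei24 that have been tied to cell death and autophagy.

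p53 binds DNA as a tetramer at a 20-base element made of a 10-base motif and its repeat. The 250 bases before each RefSeq transcription start were searched for both, on both strands. The stretches shown hold letters that match the element or the 10-base motif. RefSeq (build GRCm38.p6) held promoters of 9 of the 10 genes, with 12 starts in all, and Zmat3 had no entry. The 10-base motif without a mismatch was in 6 of the 12 windows, against 7.13% of 32851 windows of all genes, and the 20-base element with at most 2 mismatches was in 2 of the 12, against 0.661%. The elements, each with 1 mismatch, lay 51 to 32 bases before the upstream start of Cdkn1a (chr17:29090888-29090978, plus strand) and 195 to 176 bases before the start of Ccng1 (chr11:40755422-40755521, minus strand). Ei24 had the 10-base motif in the last 10 bases before its start (chr9:36797335-36797384, minus strand), and Mdm2 had it 186 to 177 bases before (chr10:117710895-117710984, minus strand). The capitals mark 1 element or motif in each stretch. The Cdkn1a stretch also holds a 10-base motif without a mismatch that begins 73 bases before the start and is left in lower case. These coordinates belong to the sequence table, not to the GRCm39 build of the counts.
Cdkn1a: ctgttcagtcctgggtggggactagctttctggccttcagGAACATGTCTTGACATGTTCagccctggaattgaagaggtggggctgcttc
Ccng1: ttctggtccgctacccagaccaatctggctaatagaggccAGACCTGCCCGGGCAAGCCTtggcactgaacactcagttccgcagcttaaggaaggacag
Ei24: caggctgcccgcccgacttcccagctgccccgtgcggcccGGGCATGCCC
Mdm2: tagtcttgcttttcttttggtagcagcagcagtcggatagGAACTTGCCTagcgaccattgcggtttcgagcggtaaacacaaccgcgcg

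The best known p53 elements of Mdm2 lie in its first intron, outside the windows searched. A match describes the letters, not binding in these embryos. Motifs without a neighbouring repeat also stood before the starts of Trp53 and of the downstream start of Sesn1, and none was found in the windows of Mdm4, Sesn2 and Tigar.

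The libraries differed in a way that the treatments do not explain. In 4 files (Control 2, 6% EtOH 1, 10% EtOH 1 and 10% EtOH 2) the count column has a long header that names the aligner, and in 5 it has a short one. Control and 6% EtOH thus have a single long-header library each, and 10% EtOH has a single short-header one. Long-header libraries summed to 19574710 to 27619281 counts and short-header ones to 6263465 to 11026334. The morula was checked by its markers: all 15 of a list with Pou5f1, Nanog, Cdx2 and Tead4 were tested, and they summed to 2316 to 4264 CPM (the usual depth-scaled count) on library totals. Dppa3 was the highest of them, with a mean of 1855 CPM, while Pou5f1 had 27.9 to 84.4 CPM, Nanog 14.8 to 222 CPM, Cdx2 8.94 to 133 CPM and Sox2 0 to 7.39 CPM. Oocyte markers summed to 6.55 to 55.3 CPM, and 13 cumulus and granulosa markers to 5.50 to 75.8 CPM. In that list Amhr2 was highest, with 50.8 CPM in 6% EtOH 2 and 73.8 CPM in 10% EtOH 3, and Has2, Ptx3, Inhba and Fshr were at 0 in every library. The sperm list summed to 12.1 to 16.9 CPM with 10% EtOH, 6.39 to 25.7 CPM with 6% EtOH and 24.5 to 44.3 CPM in Control. Prm2, Tnp1, Tnp2, Odf1 and Smcp were at 0 throughout. Nearly all of the sum was Odf2, also a centrosome gene. Odf2 held 44.3, 32.8 and 24.5 CPM in Control, 21.5, 6.39 and 22.6 CPM with 6% EtOH and 16.8, 16.9 and 12.1 CPM with 10% EtOH. On library totals 6.58% of tested genes lay below all Controls with 6% EtOH and 4.80% with 10% EtOH. The blood list summed to 11 to 32.3 CPM. The part of these lists in the results on the 10 genes was not tested.

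All 10 genes were expressed in every library, from 63 counts for Sesn1 in 6% EtOH 2 to 31081 counts for Ccng1 in 10% EtOH 2. Levels below are CPM on library sizes scaled by TMM, and only the comparison between genes is divided by exon length. Per kilobase of exon, Ccng1 had the highest mean of the 10 over the 9 libraries, at 230.5 CPM per kb, and Tigar came next at 116. Ei24 at 53.5, Sesn2 at 48.1, Mdm2 at 38.7 and Trp53 at 25.3 CPM per kb formed the middle. Cdkn1a had 15.2, Zmat3 11.9, Sesn1 7.52 and Mdm4 7.39 CPM per kb. Every pair of neighbours in this order overlapped over the libraries. Tigar stood above Ei24, Mdm2 above Trp53, Trp53 above Cdkn1a and Zmat3 above Sesn1 in 8 of 9 libraries each, while Sesn1 stood above Mdm4 in only 4 of 9. Exon lengths came from GENCODE M21, which is an annotation of another build, and genes with long untranslated ends such as Mdm4 and Zmat3 come out low on this scale.

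**Figure D1:**
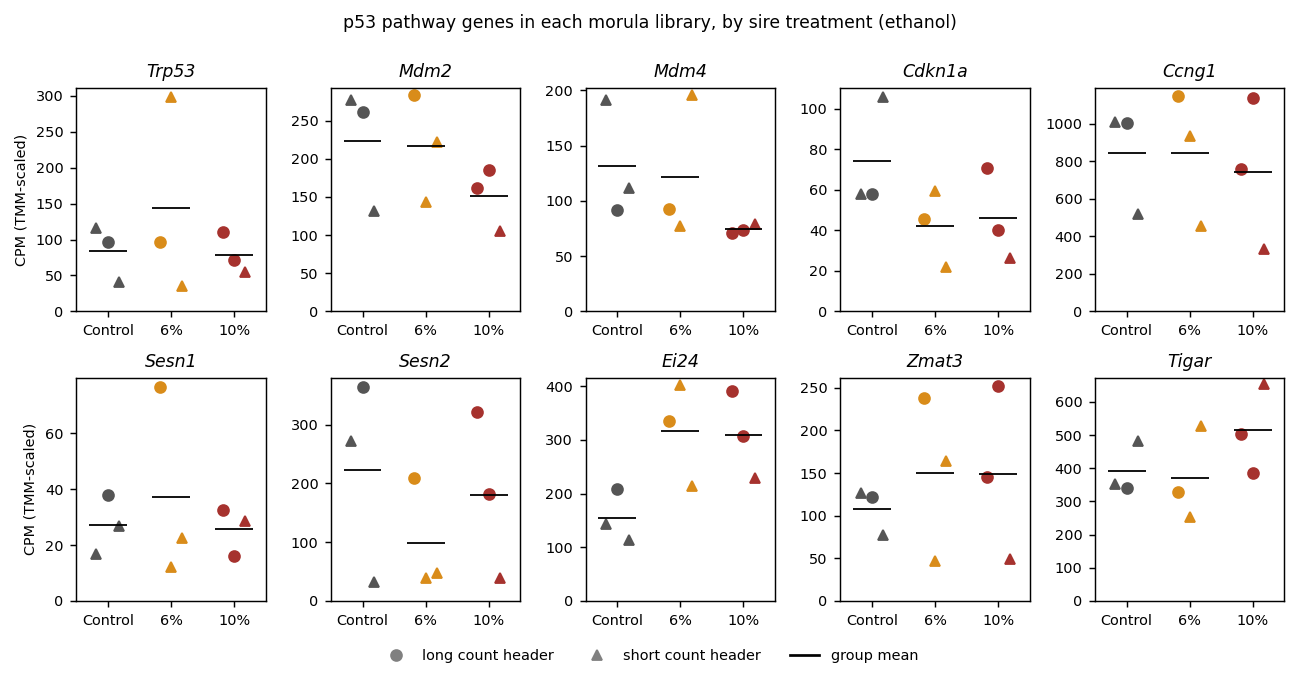
TMM-scaled CPM (y axis, linear from 0) of the 10 genes in each library, by sire treatment (x axis); black lines are group means, circles are libraries with a long count header and triangles those with a short one. Ei24 libraries of both ethanol groups lie at 213 to 402 CPM, above the Control libraries at 114 to 208 CPM, while most other genes overlap between groups.

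Trp53 itself varied more within a treatment than between treatments. It stood at 116, 96.3 and 40.9 CPM in Control libraries 1, 2 and 3, at 96.8, 298 and 35.1 CPM with 6% EtOH, and at 109.9, 71.5 and 55.1 CPM with 10% EtOH. One library, 6% EtOH 2, held the highest value and another of that group the lowest of all 9, so the groups overlapped. The log2 fold change was 0.76 ± 0.71 (SE) for 6% EtOH against Control (adjusted p = 0.874) and was -0.35 without 6% EtOH 2. For 10% EtOH against Control it was -0.10 ± 0.71 (adjusted p = 0.9999), and leaving out single libraries moved it between -0.43 and 0.20. The annotated pseudogene Trp53-ps, with which reads could be shared, held at most 12 counts in a library, or 1.88% of the Trp53 count. Wrap53, whose gene lies head to head with Trp53, held at most 12.8% of the Trp53 count.

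Mdm2, the ligase of the feedback loop, had a lower mean with 10% EtOH, and the difference did not pass the test. Its level was 276, 261 and 131 CPM in Control libraries, 284, 143 and 222 CPM with 6% EtOH and 161, 186 and 105 CPM with 10% EtOH. The 10% EtOH values all lay below the 2 higher Control libraries, but the third Control library fell among them. Mean levels were 151 ± 41.4 CPM with 10% EtOH and 223 ± 79.6 CPM in Control (SD, n = 3 each), a log2 fold change of -0.57 ± 0.48 (adjusted p = 0.9999). For 6% EtOH against Control the log2 fold change was -0.04 ± 0.47 (adjusted p = 0.993), and an interval of 2 standard errors each way ran from -0.99 to 0.91.

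Mdm4, the partner that holds p53 inactive, was tight and low with 10% EtOH. It stood at 192, 91.3 and 112 CPM in Control libraries, at 92.4, 77.5 and 196 CPM with 6% EtOH, and at 70.9, 73.3 and 79.3 CPM with 10% EtOH. All 3 libraries with 10% EtOH lay below the lowest Control library, a separation that 3.67% of all tested genes showed in that direction, and it held on RLE factors and on library totals as well. The mean was 74.5 ± 4.36 CPM with 10% EtOH and 132 ± 53 CPM in Control, a log2 fold change of -0.82 ± 0.52 that did not pass (unadjusted p = 0.140, adjusted p = 0.9999). Without Control 1, the library of highest Mdm4 in that group, it was -0.44. With header form as a term it was -0.62, and it was -0.34 in long-header libraries and -0.94 in short-header ones. The long-header value has only Control 2 on the Control side, and the short-header value has only 10% EtOH 3 on the other. With 6% EtOH the groups overlapped (log2 fold change -0.11 ± 0.52, adjusted p = 0.979). The pseudogene Mdm4-ps held at most 0.525% of the Mdm4 count.

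Ratios within a library do not depend on the scaling of libraries. The Mdm2 count was 2.39, 2.71 and 3.21 times that of Trp53 in Control libraries, 2.93, 0.481 and 6.32 times with 6% EtOH, and 1.47, 2.59 and 1.90 times with 10% EtOH. Control libraries were close to each other, and those with 6% EtOH spanned both extremes. Mdm2 over Mdm4 ran from 1.13 to 3.07 with 6% EtOH, from 1.32 to 2.53 with 10% EtOH and from 1.18 to 2.86 in Control. A two-sided exact permutation test on the log2 ratio gave p = 0.2 for Mdm2 over Trp53 at 10% EtOH against Control, where 0.1 is the smallest p that 3 against 3 libraries allow. Over the 9 ratio tests made, which were chosen after the data were seen, every adjusted p was 1.

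Cdkn1a encodes p21, the inhibitor of cyclin-dependent kinases through which p53 stops the cell cycle. Its mean was lower at both doses, without passing the test. It stood at 57.8, 58.1 and 106 CPM in Control libraries, at 45.7, 59.4 and 21.8 CPM with 6% EtOH and at 70.8, 40.3 and 26.3 CPM with 10% EtOH. In each ethanol group 1 library lay above the lowest Control library, so neither group was separate. The log2 fold change was -0.81 ± 0.61 for 6% EtOH (adjusted p = 0.852) and -0.69 ± 0.61 for 10% EtOH (adjusted p = 0.9999) against the same Controls. Without Control 3 these were -0.50 and -0.34. In long-header libraries alone they were -0.34 for 6% EtOH and -0.071 for 10% EtOH, and in short-header ones -1.03 and -1.64. Of these only -1.03 has more than a single library on both sides. On library totals alone the 6% EtOH libraries, at 18.1 to 49.7 CPM, did not overlap the Controls at 64.2 to 106 CPM, a separation that 6.58% of tested genes showed in that direction on that scale. An antisense gene shares 273 exon bases with Cdkn1a in GENCODE M21. It has no entry under that name among the counted genes, so its level could not be read.

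Ccng1 encodes cyclin G1, a p53 target that brings protein phosphatase 2A to Mdm2, and it ranked 153 of 12488 tested genes by mean CPM. Control libraries held 1009, 1004 and 517 CPM, those with 6% EtOH 1149, 932 and 452 CPM, and those with 10% EtOH 759, 1136 and 330.5 CPM. Each group thus held 1 library well below its other 2, and that library had a short header in every case. The log2 fold change was 0.00 ± 0.53 for 6% EtOH (adjusted p = 0.9995) and -0.18 ± 0.53 for 10% EtOH (adjusted p = 0.9999) against Control. At 6% EtOH the interval of 2 standard errors each way ran from -1.05 to 1.05, so a change of up to about that size could not be seen.

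Sesn1 and Sesn2 encode sestrins, stress proteins that hold back mTORC1 and protect against peroxides. Sesn2 stood at 271, 363 and 32.8 CPM in Control libraries, at 209, 39.3 and 48.2 CPM with 6% EtOH, and at 321, 181 and 38.9 CPM with 10% EtOH. The values fell into a high set at 181 CPM and above and a low set at 48.2 CPM and below, and each treatment had members of both. Its log2 fold change was -1.17 ± 0.93 for 6% EtOH (adjusted p = 0.856) and -0.30 ± 0.91 for 10% EtOH (adjusted p = 0.9999) against Control. The first was -0.62 without Control 2 and -2.38 without 6% EtOH 1, and the second was 0.25 without Control 2 and 0.18 without 10% EtOH 3. Sesn1 was lower, at 16.7, 37.8 and 26.7 CPM in Control libraries, 76.7, 12 and 22.5 CPM with 6% EtOH and 32.6, 15.9 and 28.7 CPM with 10% EtOH. It did not fall into the high and low sets of Sesn2, and a single library, 6% EtOH 1, set its highest value. Sesn1 log2 fold changes were 0.46 ± 0.76 for 6% EtOH (adjusted p = 0.930), or -0.67 without that library, and -0.07 ± 0.76 for 10% EtOH (adjusted p = 0.9999).

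Tigar encodes a phosphatase that lowers fructose-2,6-bisphosphate and so steers glucose from glycolysis to the pentose phosphate pathway. It had the smallest spread of the 10 genes, with an SD of 0.42 in log2 CPM over the 9 libraries, where Sesn2 had 1.47 and the median of tested genes at 10 CPM or more was 0.90. Control libraries held 352, 339 and 481 CPM, those with 6% EtOH 327, 254 and 528 CPM and those with 10% EtOH 503, 387 and 653 CPM. All 3 libraries with 10% EtOH lay above 2 of the 3 Controls, and the groups overlapped. The log2 fold change was 0.40 ± 0.43 for 10% EtOH (adjusted p = 0.9999) and -0.08 ± 0.43 for 6% EtOH (adjusted p = 0.983) against Control. The antisense gene Platr31 shares 122 exon bases with Tigar and held at most 156 counts in a library, 3.25% of the Tigar count there. No source used here gives the strand setting of the counting, so reads of the pair cannot be told apart.

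Zmat3 encodes a zinc finger protein that binds RNA and is switched on by p53. Its level was 127, 121 and 77.0 CPM in Control libraries, 238, 47.2 and 164 CPM with 6% EtOH and 145, 252 and 49.6 CPM with 10% EtOH. Both ethanol groups held libraries above and below every Control library. The log2 fold change was 0.46 ± 0.67 at either dose against Control (adjusted p = 0.913 for 6% EtOH and 0.9999 for 10% EtOH). It became -0.06 at 6% EtOH without 6% EtOH 1 and -0.16 at 10% EtOH without 10% EtOH 2.

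Ei24 encodes a membrane protein of the endoplasmic reticulum that takes part in autophagy and was first found as a gene induced by p53 during etoposide-induced death. It was the only 1 of the 10 genes whose ethanol libraries lay above all Controls at both doses. With 6% EtOH it stood at 336, 402 and 213 CPM, with 10% EtOH at 392, 307 and 229 CPM, and in Control libraries at 143, 208 and 114 CPM. The gap to the highest Control was narrow, since the lowest 6% EtOH library had 213 CPM and that Control 208 CPM. Ei24 averaged 317 ± 95.5 CPM with 6% EtOH and 155 ± 48.4 CPM in Control, a log2 fold change of 1.03 ± 0.45 (2.04-fold, unadjusted p = 0.0398). With 10% EtOH it averaged 309 ± 81.2 CPM, a log2 fold change of 0.996 ± 0.45 against the same Controls (1.99-fold, unadjusted p = 0.0456). Neither passed over all genes, with adjusted p = 0.799 for 6% EtOH and 0.9999 for 10% EtOH. By DESeq2 the unadjusted p was 0.0356 for 6% EtOH and 0.0503 for 10% EtOH.

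Separation in that direction was shown by 3.35% of all tested genes for 6% EtOH and by 4.39% for 10% EtOH, and by 1 of the 10 genes at each dose. The 2 comparisons share their Control libraries. The share of all tested genes above the Controls at both doses is not given here, so how common that is among genes stays unknown. On library totals alone the Ei24 groups overlapped, at 178 to 349 CPM with 6% EtOH and 114 to 245 CPM in Control, and at 243 to 383 CPM with 10% EtOH. The direction held without each library in turn, with log2 fold changes of 0.80 to 1.30 for 6% EtOH and 0.79 to 1.28 for 10% EtOH. Within the long-header libraries the log2 fold changes were 0.69 and 0.74, and within the short-header ones 1.24 and 0.83, the first value of each pair for 6% EtOH and the second for 10% EtOH. Of these only 1.24 has more than a single library on both sides. Between the doses Ei24 did not differ beyond its spread (10% against 6% EtOH, log2 fold change -0.03 ± 0.44, adjusted p = 0.989). The antisense gene Gm26787 shares 324 exon bases with Ei24 in GENCODE M21 and was listed at 0 counts in every library.

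**Figure D2:**
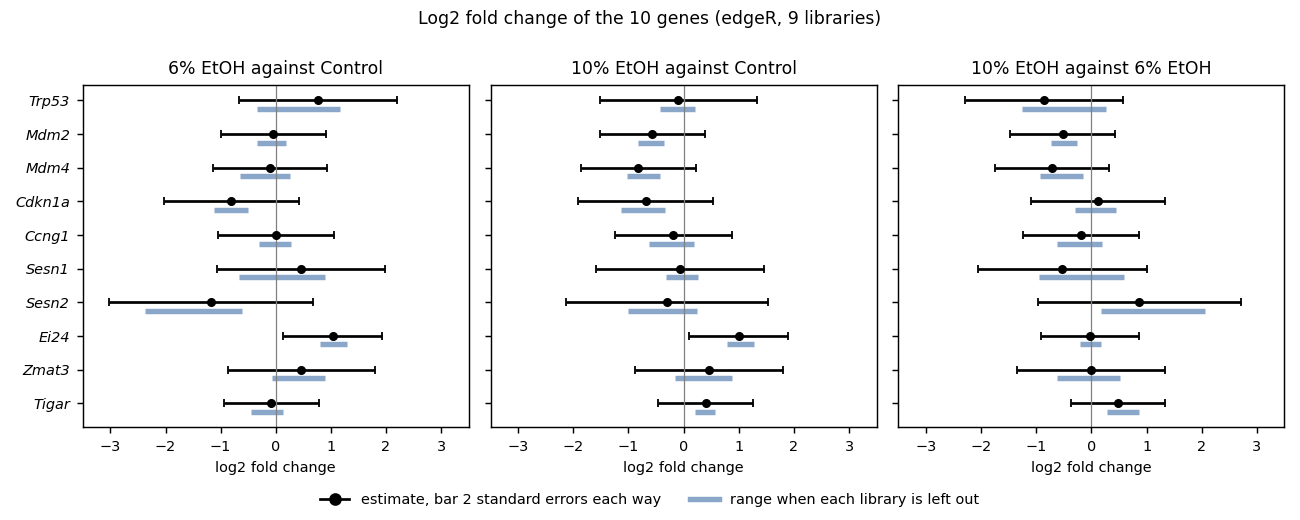
Log2 fold change (x axis) of the 10 genes (rows) in 3 comparisons; points are edgeR estimates with bars of 2 standard errors each way, and blue bars are the range of the estimate when each of the 9 libraries is left out. Ei24 is at 1.03 and 0.996 against Control and at -0.03 between doses, and the bars of the other 9 genes cross 0 in all 3 panels.

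Counted over the 10 genes, the tests called none in any comparison. edgeR called 0 of 12488 genes (0%) and 0 of the 10 for 6% EtOH against Control, 0 (0%) and 0 for 10% EtOH against Control, and 0 (0%) and 0 for 10% against 6% EtOH. At an unadjusted p under 0.05 it gave 779 genes (6.24%) for 6% EtOH, 267 (2.14%) for 10% EtOH and 665 (5.33%) between doses. Ei24 was the 1 member among the 779 and the 267, and no member was among the 665. DESeq2 called 31 (0.28%), 10 (0.0833%) and 34 (0.295%) genes in these comparisons and limma voom 0 (0%) in each, with 0 of the 10 in every case. Log2 fold changes lay below 0 for 5 of the 10 genes with 6% EtOH and for 7 of 10 with 10% EtOH, where 50.5% and 52.9% of all tested genes did. Their median was -0.02 and -0.14 in these comparisons, beside -0.01 and -0.05 over all genes.

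Between the doses no member passed the test. Mdm4 and Mdm2 had negative log2 fold changes for 10% against 6% EtOH, of -0.71 ± 0.52 (adjusted p = 0.811) and -0.52 ± 0.48 (adjusted p = 0.829). Trp53 had -0.86 ± 0.72 (adjusted p = 0.823), which was 0.26 without 6% EtOH 2, and Sesn2 had 0.87 ± 0.92 (adjusted p = 0.849), or 0.20 with header form as a term. Tigar averaged 514 ± 133 CPM with 10% EtOH and 369.6 ± 142 CPM with 6% EtOH, a log2 fold change of 0.48 ± 0.43 (adjusted p = 0.826) that was above 0 in 19 of 19 alternatives. No member had its 10% EtOH libraries all above those with 6% EtOH, as 6.05% of tested genes had, or all below them, as 3.6% had. On RLE factors the Mdm4 libraries with 10% EtOH, at 70.2 to 79.3 CPM, lay just below those with 6% EtOH, at 80.6 to 196 CPM, as 3.76% of tested genes did on that scale.

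Of the 10 genes Sesn2 followed the header form most closely. Long-header libraries held 181 to 363 CPM and short-header ones 32.8 to 271 CPM, where the only short-header library in the high set was Control 1. With treatment in the model, Sesn2 was 2.08 ± 0.60 higher in log2 in long-header libraries (unadjusted p = 0.005, adjusted p = 0.171), a comparison added after the data were seen. By edgeR 13 of 12488 genes (0.104%) passed it, 5 higher (0.04%) and 8 lower (0.0641%), and 0 of the 10. Long-header libraries lay all above the short-header ones in 4.28% of genes and all below in 4.8%, and in none of the 10 either way. limma voom passed Sesn2 (2.41, adjusted p = 0.0294), as did edgeR without the filter on low counts (2.18, adjusted p = 0.00163) and without Control 1 (2.79, adjusted p = 0.0407), and leaving out any other library did not. The voom and no-filter fits also called many more genes than these 13, as counted in the last section, so passing there is not particular to Sesn2. Ccng1 and Zmat3 were also higher in long-header libraries, by 0.87 ± 0.40 (adjusted p = 0.335) and 1.14 ± 0.53 (adjusted p = 0.340), which did not pass. Ei24 differed by 0.48 ± 0.35 (adjusted p = 0.525). With header form as a term, the Ei24 log2 fold change against Control was 1.07 ± 0.40 for 6% EtOH (edgeR unadjusted p = 0.0209, adjusted p = 0.628). For 10% EtOH it was 0.85 ± 0.41 (unadjusted p = 0.0646, adjusted p = 0.9996). That of Sesn2 at 6% EtOH was -1.51 ± 0.67 with the term (unadjusted p = 0.0454, adjusted p = 0.628). At 10% EtOH that of Sesn2 was -1.31 ± 0.73 with the term (adjusted p = 0.9996), against -0.30 without it. In short-header libraries alone, where 10% EtOH 3 is the only library of its dose, that value was -1.98. Ccng1 at 10% EtOH was -0.60 ± 0.48 with the term, against -0.18 without it. Header form goes with depth in these libraries, and their parts cannot be told apart.

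**Figure D3:**
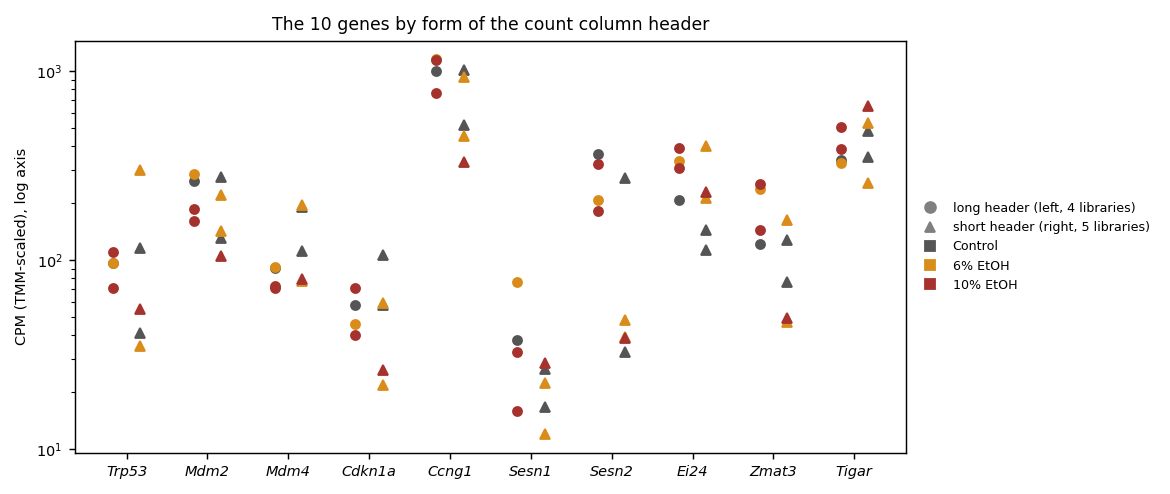
TMM-scaled CPM (y axis, logarithmic) of the 10 genes (x axis) in libraries with a long count header (circles, left of each gene, 4 libraries) and a short one (triangles, right, 5 libraries), coloured by sire treatment. Sesn2 stands at 181 to 363 CPM in long-header libraries and at 32.8 to 48.2 CPM in 4 of the 5 short-header ones.

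Among the 10 genes, Mdm2 and Ccng1 differed least from each other over the libraries. After each gene was centred on its own mean log2 CPM, their mean absolute difference over 9 libraries was 0.34, the smallest of 45 pairs, and Mdm2 with Mdm4 came next at 0.48. Sesn2 with Tigar differed most, at 1.47. The measure is also small for genes that vary little, and Mdm2 had an SD of only 0.51 in log2 CPM. A small value thus does not by itself show that genes rise and fall together. By the same measure the genes most like Mdm2 among 6825 at 10 CPM or more were Magt1 (0.20), Prepl (0.21) and Zfp874a (0.22), where the median over these genes was 0.79. The genes most like Cdkn1a were Cyb5r1 (0.23), Mtmr4 (0.23) and Orc5 (0.29), against a median of 0.87. The 9 points behind each value share depth and header form within the long-header and short-header sets.

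Other genes of the pathway were read from lists. Of 19 kinases and cofactors of p53, all tested, 12 had log2 fold changes above 0 with 6% EtOH and 5 with 10% EtOH, and none passed. Below 0 lay 7 and 14 of them, where 50.5% and 52.9% of all tested genes did. In long-header against short-header libraries 12 of the 19 lay below 0, with a median of -0.51 beside 0.10 over all genes. The part of header form in the treatment values was not tested. Topors, a ligase that modifies p53, stood at 57.2, 97.2 and 118 CPM with 6% EtOH and at 27.4, 60.8 and 42.2 CPM in Control (log2 fold change 1.06 ± 0.56, adjusted p = 0.808). Mdc1, a scaffold at DNA breaks, stood at 9.57, 2.41 and 16.5 CPM with 10% EtOH and at 26.9, 13.1 and 29.3 CPM in Control (-1.28 ± 0.85, adjusted p = 0.9999). Usp7, the enzyme that removes ubiquitin from p53 and Mdm2, was the most abundant of this list by CPM, with 0.41 ± 0.44 for 6% EtOH (adjusted p = 0.886).

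Of 14 listed brakes on p53, 11 were tested, and 7 lay above 0 at either dose with medians of 0.52 for 6% EtOH and 0.17 for 10% EtOH. Rchy1 and Cop1 encode ubiquitin ligases that act on p53 beside Mdm2. Rchy1 stood at 167, 240.2 and 221 CPM with 6% EtOH and at 71.8, 219.8 and 79.0 CPM in Control (0.76 ± 0.51, adjusted p = 0.837). Cop1 stood at 179.7, 182 and 134 CPM with 10% EtOH and at 106, 75.9 and 163 CPM in Control (0.52 ± 0.46, adjusted p = 0.9999). In each case 1 Control library reached into the range of the ethanol group.

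Further p53 targets were read in 2 lists, and none passed by edgeR. Of 15 tested targets that act in cell death, 8 lay below 0 with 6% EtOH (median -0.04) and 12 with 10% EtOH (median -0.43). Of 24 tested targets that act in arrest, repair and metabolism, 16 lay below 0 with 6% EtOH (median -0.58) and 19 with 10% EtOH (median -0.47). Beside them stand 50.5% and 52.9% of all genes below 0, with medians of -0.01 and -0.05. The death targets with 6% EtOH were thus close to the share of all genes. Both lists also differed by header form, with 12 of 15 death targets (median 0.76) and 17 of 24 of the others (median 0.48) above 0 in long-header against short-header libraries, where the median of all genes was 0.10, and the part of this in the treatment values was not tested. The comparisons share Controls, so the doses are not separate observations of this.

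Triap1, a small protein that restrains apoptosis, stood at 22.9, 7.64 and 27.7 CPM with 6% EtOH and at 54.1, 25.5 and 132 CPM in Control (-1.86 ± 0.77, adjusted p = 0.799). Fdxr, the ferredoxin reductase of mitochondria, stood at 0.423, 3.25 and 1.98 CPM with 6% EtOH and at 5.96, 21 and 15.5 CPM in Control (-2.93 ± 1.28, adjusted p = 0.799), without overlap, as 4.72% of tested genes were lower at that dose. Its libraries with 10% EtOH held 3.5, 28.7 and 1.60 CPM and overlapped the Controls. Ddit4, an inhibitor of mTORC1 that other stresses also induce, stood at 86.9, 191 and 76.3 CPM with 6% EtOH and at 346, 451 and 37.7 CPM in Control (-1.24 ± 0.74, adjusted p = 0.822). Like Sesn2, it was low in Control 3 and high in Controls 1 and 2.

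Downstream of p21, 21 of 22 listed CDK inhibitors, cyclins, kinases and pocket proteins were tested, with 11 above 0 for 6% EtOH and 13 for 10% EtOH. E2f4, a repressor that works with the pocket proteins in quiescent cells, stood at 78.2, 1399 and 1503 CPM with 6% EtOH and at 203, 142 and 50.3 CPM in Control (2.92 ± 0.86, unadjusted p = 0.005, adjusted p = 0.799). The 2 high libraries of that group have short headers, as have Controls 1 and 3, and the 10% EtOH libraries held 104, 159.7 and 113 CPM. Cyclin E1 (Ccne1), which drives entry into S phase and is restrained by p21, was the most abundant of the list, with 1467, 1382 and 1412 CPM with 10% EtOH and 1122, 1317 and 708 CPM in Control. All 3 libraries with 10% EtOH lay above the Controls, as in 4.39% of tested genes, a difference that did not pass (0.44 ± 0.50, adjusted p = 0.9999). On library totals alone the groups overlapped, with Control 2 above the libraries with 10% EtOH.

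Of 16 partners of the sestrins, all tested, 9 lay above 0 with 6% EtOH and 6 with 10% EtOH. Mios, a subunit of the GATOR2 complex that Sesn2 binds, stood at 15.4, 16.6 and 19.3 CPM with 10% EtOH and at 38.9, 23.8 and 35.9 CPM in Control, without overlap, as 3.67% of tested genes were lower at that dose (-0.94 ± 0.66, adjusted p = 0.9999). It was also lower in each 6% EtOH library, at 10.8, 22.9 and 14.6 CPM (-1.03 ± 0.66, adjusted p = 0.829), a separation that 4.72% of tested genes showed. Wdr24, another GATOR2 subunit, owed its high 6% EtOH mean to 1 library at 211 CPM, beside 5.54 and 4.51 CPM in the others. Among relatives of the members 7 of 10 were tested, with 5 above 0 for 6% EtOH and 4 for 10% EtOH. The p53 relative Trp73 held at most 2.35 CPM in a library.

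**Figure D4:**
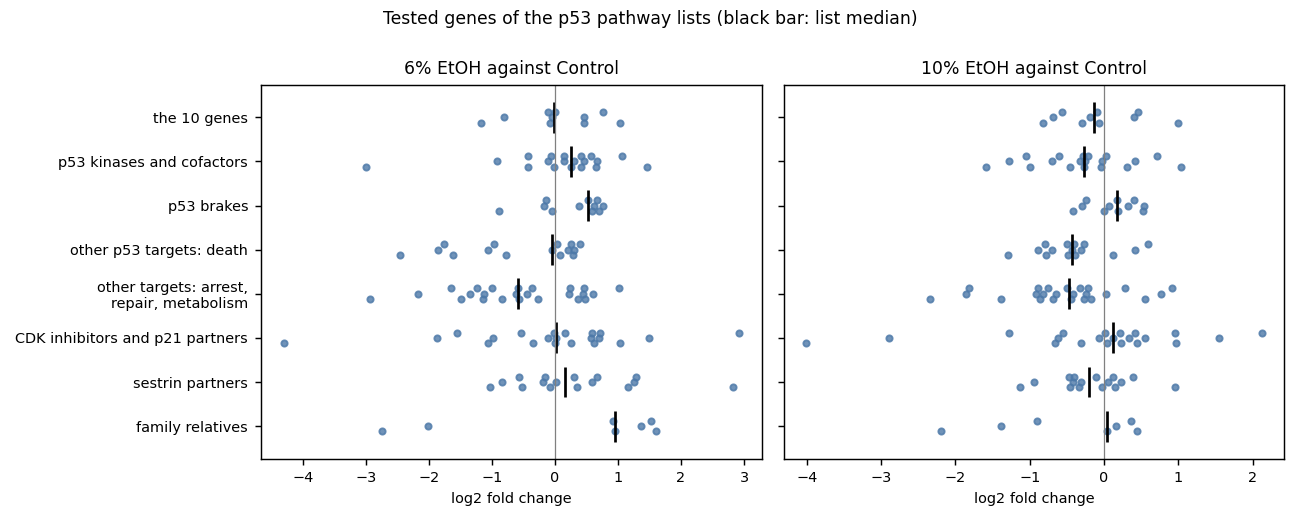
Log2 fold change (x axis) of the tested genes of each pathway list (rows, 1 point a gene, black bar the list median) for 6% EtOH and 10% EtOH against Control. Medians of the list of arrest, repair and metabolism targets lie at -0.58 and -0.47 and those of the 10 genes at -0.02 and -0.14.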

How the data were processed

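Each file held raw gene counts of 1 library of total RNA, deposited by the authors, made with featureCounts on build GRCm39 per the submitters' processing notes, which also name DESeq2. Per the file headers, 4 libraries were aligned with RNA STAR. Aligners of the others, versions, annotation and strand setting are not given in the sources used here. Replicate numbers follow accession order and pair nothing. Libraries of a group differed by more than counting noise (smallest chi-square per degree of freedom 192).

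Genes were filtered with filterByExpr, scaled with TMM and fitted by edgeR 4.0.16 (quasi-likelihood, 3 groups, 9 libraries) in R 4.3.3, with Benjamini-Hochberg adjustment over all 12488 tested genes at 0.05. A standard error is the estimate divided by the square root of its F statistic. The members and lists were chosen with earlier results of these data known. The members are always named; of each list the gene of smallest p in each comparison with Control and the gene of highest mean CPM could be named. The test was also tried on simulated counts, and the outcome is not reported here. Alternatives were RLE factors, library totals, no filter, at least 5 CPM in 3 libraries, DESeq2 1.42.0, limma 3.58.1 voom with weighted libraries, a fit of only the groups being compared, header form as a term or alone, and each library left out. Counting precision is set by 63 or more counts for each member in each library, which is well within the spread between libraries.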

Additional observations from a re-analysis of the deposited data

How the results depend on the processing

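No member passed an adjusted p of 0.05 in any treatment comparison under any alternative run. The count of genes called, 0 by edgeR in each, was 140 (6% EtOH against Control), 47 (10% EtOH against Control) and 147 (10% against 6% EtOH) with no filter, 31, 10 and 34 by DESeq2, 3, 9 and 4 in long-header libraries alone, and 48, 2 and 1 in short-header ones. The cause was not tested. On library totals the median of all genes was -0.28 for 6% EtOH and -0.18 for 10% EtOH against Control, beside -0.01 and -0.05 on TMM factors.

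Log2 fold changes changed sign as follows. For 6% EtOH against Control, Ccng1 was -0.26 on library totals, -0.049 with no filter, -0.0080 with the strict filter, -0.25 by voom, -0.023 with only the groups compared, -0.044 with header form as a term and -0.16 in short-header libraries. Mdm4 was 0.0081 by voom and 0.021 in long-header libraries, Mdm2 0.13 in long-header libraries, and Sesn1 -0.066 by voom and -0.34 in short-header libraries. For 10% EtOH against Control, Zmat3 was -0.18 with header form as a term and -1.05 in short-header libraries, and Sesn1 was 0.40 there. For 10% against 6% EtOH, Ei24 was 0.11 on library totals, 0.059 with no filter, 0.14 by voom and 0.048 in long-header libraries. Zmat3 was 0.067 on library totals, 0.050 with no filter and 0.29 by voom, and Ccng1 0.068 by voom. In short-header libraries, where 10% EtOH 3 is the only library of its dose, Cdkn1a was -0.61, Sesn1 0.74 and Sesn2 -0.16.

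With each library left out, values for 6% EtOH against Control ran from -0.35 to 1.16 for Trp53, -0.34 to 0.18 for Mdm2, -0.66 to 0.25 for Mdm4, -0.31 to 0.27 for Ccng1, -0.67 to 0.88 for Sesn1, -0.064 to 0.89 for Zmat3 and -0.45 to 0.13 for Tigar. For 10% EtOH against Control they ran from -0.43 to 0.20 for Trp53, -0.63 to 0.18 for Ccng1, -0.32 to 0.26 for Sesn1, -1.01 to 0.25 for Sesn2 and -0.16 to 0.88 for Zmat3. For 10% against 6% EtOH they ran from -1.25 to 0.26 for Trp53, -0.30 to 0.45 for Cdkn1a, -0.63 to 0.19 for Ccng1, -0.95 to 0.60 for Sesn1, -0.21 to 0.18 for Ei24 and -0.62 to 0.52 for Zmat3. Between header forms they ran from -0.18 to 0.80 for Trp53, -0.11 to 0.65 for Cdkn1a and 1.81 to 2.79 for Sesn2, and the count of genes called, 13 with all libraries, was 0 to 30, with 504 under no filter and 304 by voom.

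Ei24 against Control kept its sign in 19 of 19 alternatives at both doses. Cdkn1a did so too, but at 10% EtOH its value was -0.071 in long-header libraries and -1.64 in short-header ones. Against Control, Sesn2 at 6% EtOH and Mdm2, Mdm4 and Tigar at 10% EtOH also kept their signs in 19 of 19. The alternatives refit the same libraries, so a kept sign is not separate evidence. No paired analysis was possible because the labels give no replicate numbers shared between groups.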
